A study of Vitis vinifera with 26 samples.

Results

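The pathogenesis-related 10 (PR10) genes of grapevine chromosome 5 were followed in berries of Vitis vinifera 'Pinot Noir', a red wine grape. The cluster was taken as 8 reference identifiers of 31919 in the deposited isoform annotation. They were VIT_205s0077g01530, VIT_205s0077g01540, VIT_205s0077g01550, VIT_205s0077g01560, VIT_205s0077g01570, VIT_205s0077g01580, VIT_205s0077g01600 and VIT_205s0077g01690. Together they carried 28 of 90542 assembled isoforms, which lay on 6 of 33229 assembled loci.

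PR10 proteins are small intracellular proteins that share a fold with the birch pollen allergen Bet v 1. Plants make them after infection, wounding and other stresses, and several bind small hydrophobic ligands in a central cavity. Their genes often lie in tandem arrays, in grapevine too. Some members of the family act as ribonucleases in the test tube, whereas others form flavonoid or alkaloid precursors or bind hormones. Individual roles of the 8 grapevine genes are not assigned here, because the files and the reference table give no name for these identifiers. 1-Methylcyclopropene (1-MCP) is a gas that occupies ethylene receptors and blocks the perception of ethylene, a hormone that takes part in ripening and in defence responses.

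Field-grown plants aged 8 years supplied 26 RNA libraries in 6 groups. Clusters were bagged with 5 ppm 1-MCP or mock for 24 h at 6, 7 or 8 weeks after anthesis (WAA) and sampled after 24 h. There were 3 treated and 3 control libraries at 6 WAA, and 5 of each at 7 WAA and at 8 WAA. A plant was the biological replicate and gave a control and a treated cluster. The 13 pairs were matched by the week and replicate number in the titles. Nothing states if a plant served in more than 1 week. The description label calls every cluster treated, controls included, so the assignment of controls rests on the titles and source names.

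Of the deposited isoform values above 0, 83.9% to 91.2% per library were whole multiples of a single step. That step is called 1 unit below. Units are the authors' signal on a scale of their own, and what 1 unit stands for is not given. The read depth is unknown, and a value of 0 means only that a feature was listed at 0. Library totals ranged from 20368 to 23485 units, with 13912 to 15261 loci listed at 0.5 units or more. The treated library had the higher total in 12 of 13 plants, by a median of 546 units over all plants. In bulk berry tissue, fewer cells of a type cannot be told apart from less RNA per cell. The list of 4 berry pigmentation identifiers, recalled from the grapevine literature as a check on skin colouring, was listed at 0 in all 26 libraries, so the labelled tissue could not be checked with it.

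The 4 identifiers at the start of the run were assembled into a single locus, XLOC_022814, on chromosome 5 from 1231860 to 1247868. Its 14 isoforms covered VIT_205s0077g01530, VIT_205s0077g01540, VIT_205s0077g01550 and VIT_205s0077g01560. Of these isoforms, 4 equalled a reference transcript and 10 had at least 1 new splice junction, with lengths of 480 to 1137 bases. Coordinates are those of the deposited annotation, whose genome build is not given in the sources used here.

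A pair of antisense loci had the same interval in the files. XLOC_021938 held 1 isoform of 904 bases opposite VIT_205s0077g01550, and XLOC_021939 held 1 isoform of 241 bases opposite VIT_205s0077g01560. Whether the libraries kept the strand is not stated, and without it reads of sense and antisense transcripts cannot be told apart. XLOC_021940, from 1251087 to 1264720, joined VIT_205s0077g01570 and VIT_205s0077g01580 in 10 isoforms of 738 to 2027 bases. VIT_205s0077g01600 was XLOC_021942, from 1271451 to 1272235, with 1 isoform of 588 bases. VIT_205s0077g01690 was XLOC_021950, from 1307160 to 1308575, with 1 isoform of 984 bases. Tandem copies are alike in sequence, and how reads shared by copies were divided is not stated, so values of single identifiers are uncertain.

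The signal of the cluster was close to a count of isoforms listed. Of 728 isoform values (28 isoforms in 26 libraries), 500 were 0, or 68.7%, and 215 were 1 unit, or 29.5%. The other 13 values made up 1.79%. Units were also higher for loci with more assembled isoforms. Over the loci listed at above 0 in any library, the mean was 0.459 units for the 8436 loci with 1 isoform and 2.50 units for the 1453 loci with 10 or more. For this reason levels were compared between groups within a locus and not between loci.

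Reference transcripts of 3 members were listed at 0 in every library. These were the annotated forms of VIT_205s0077g01550, VIT_205s0077g01570 and VIT_205s0077g01580, so all signal of these 3 identifiers came from forms with a new junction or from the antisense strand. The plot of isoforms by library shows this pattern.

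**Figure D1:**
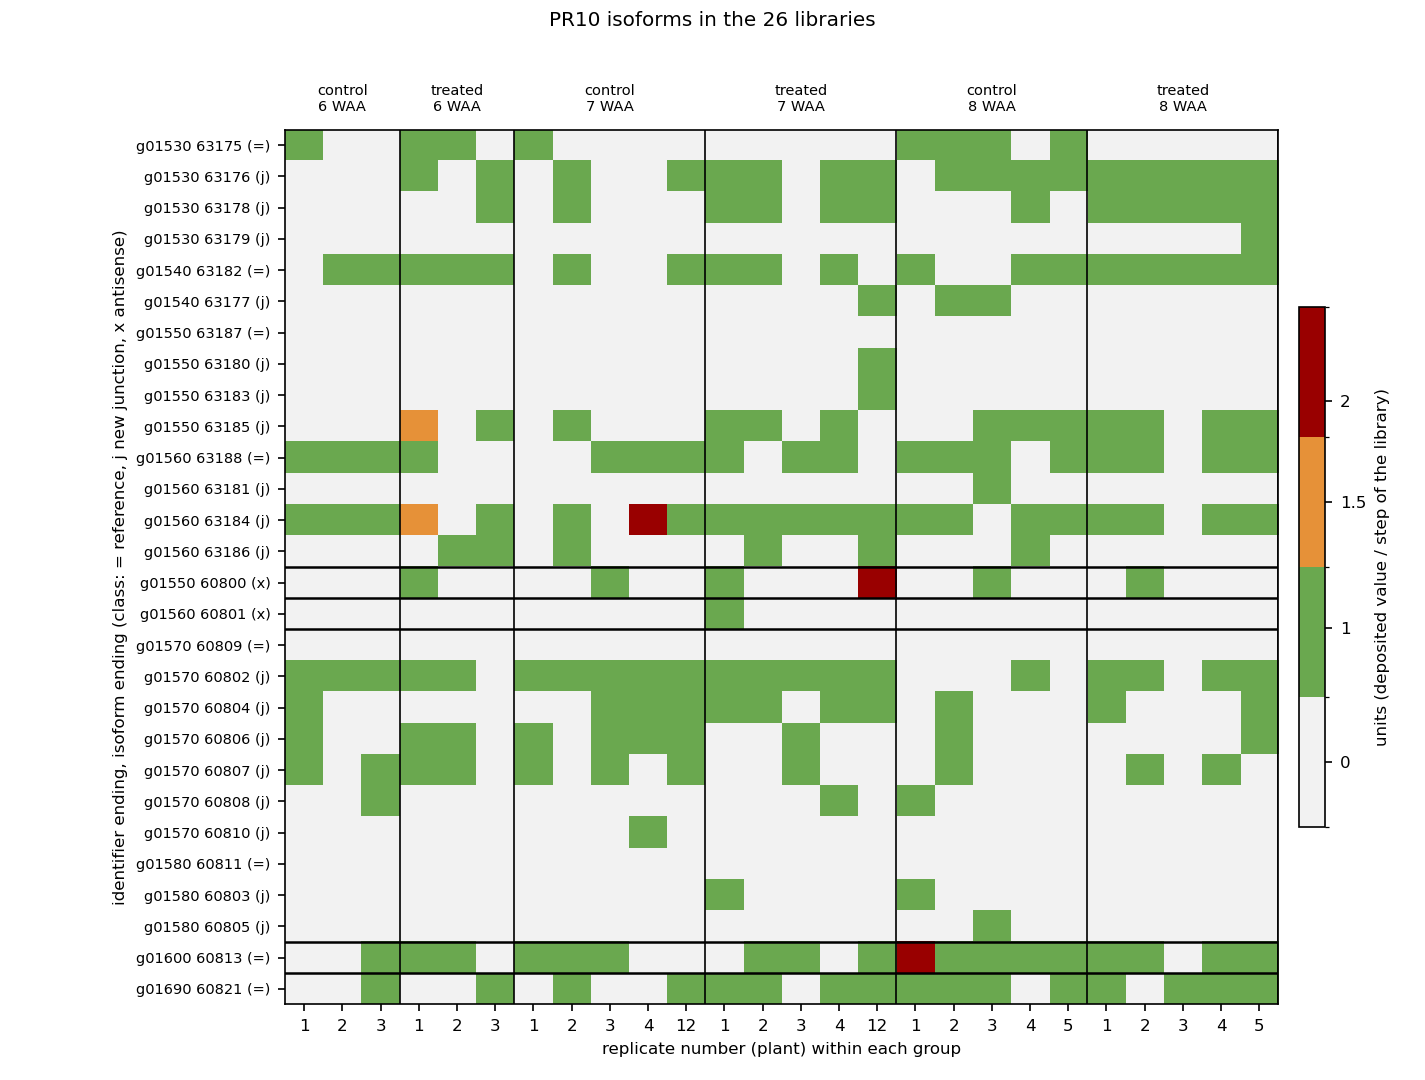
Units of each of the 28 PR10 isoforms (rows, grouped by locus) in each of the 26 libraries (columns, grouped by treatment and week), with colour giving units. Most cells are at 0 or 1 unit, and 3 annotated reference forms are at 0 throughout.

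No effect of 1-MCP on the cluster passed the test. Because units were close to a count of isoforms listed, they cannot give the size of a change in transcript amount. At 6 WAA the 6 loci together held 6.33 ± 2.08 units in control clusters (SD, n = 3) and 8.67 ± 2.89 in treated clusters (SD, n = 3). At 7 WAA the sums were 7.4 ± 1.67 (SD, n = 5) and 10.2 ± 2.68 (SD, n = 5). At 8 WAA they were 9 ± 1 and 9.2 ± 3.03 (SD, n = 5 each). The treated cluster held more PR10 units than the control cluster of its plant in 9 of 13 plants, the same number in 1 and fewer in 3. The mean difference within plants was 1.69 ± 3.30 units (SD, n = 13 plants), smaller than its own spread. Put in order, the group sums ran from control at 6 WAA through control at 7 WAA, treated at 6 WAA, control at 8 WAA and treated at 8 WAA to treated at 7 WAA. Each step between neighbours in that order was smaller than the SD of at least 1 of the 2 groups.

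XLOC_022814, with 4 of the 8 genes, carried most of that difference and was listed in 26 of 26 libraries. At 6 WAA its value was 3, 3 and 3 units in control replicates 1 to 3 and 7, 3 and 6 units in treated clusters of the same plants. At 7 WAA, replicates 1, 2, 3, 4 and 12 held 1, 6, 1, 3 and 4 units in control clusters and 6, 6, 2, 6 and 7 units in treated clusters. The ranges overlapped in both weeks: treated replicate 2 at 6 WAA and treated replicate 3 at 7 WAA were as low as controls, and control replicate 2 at 7 WAA was as high as most treated clusters. At 8 WAA, replicates 1 to 5 held 4, 5, 6, 6 and 6 units in control clusters and 6, 6, 3, 6 and 7 units in treated clusters. There the treated range spanned the control range, and treated replicate 3 was the lowest library of that week.

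Within plants, XLOC_022814 was higher after 1-MCP in 9, equal in 3 and lower in 1 of 13. The difference was 2.33 ± 2.08 units at 6 WAA (SD, n = 3 plants), 2.40 ± 1.95 at 7 WAA (SD, n = 5 plants) and 0.2 ± 1.92 at 8 WAA (SD, n = 5 plants). Fold changes were fitted with limma on log2(units + 1), a scale that understates changes of low loci, with a block for each plant and Benjamini-Hochberg adjustment over all tested loci. The log2 fold change was 0.60 ± 0.32 at 6 WAA (SE, limma adjusted p = 0.903). At 7 WAA it was 0.78 ± 0.25 (SE, limma adjusted p = 0.729). At 8 WAA it was 0.02 ± 0.25 (SE, limma adjusted p = 1), and it was -0.03 with library totals made equal. Averaged over the weeks, a contrast added after seeing the data, it was 0.47 ± 0.16 (SE, limma adjusted p = 0.734). With library totals made equal the averaged value was 0.43.

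A difference between weeks in the response of XLOC_022814 was tested directly. The 1-MCP log2 fold change at 8 WAA minus that at 7 WAA was -0.76 ± 0.35 (SE, limma adjusted p = 0.973). It did not pass the threshold, and it was -0.50 without replicate 1 of 7 WAA.

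Over the 5 tested PR10 loci, limma called 0 at 6 WAA, against 0.043% of all 18612 tested loci, and 0 had an unadjusted p under 0.05, against 6.68%. At 7 WAA limma called 0 of 5 against 0.00537% of all loci, and 1 of 5, XLOC_022814, had an unadjusted p under 0.05 against 5.34%. At 8 WAA limma called 0 of 5 and 0% of all loci, with 0 of 5 against 4.35% at an unadjusted p under 0.05. For the average over the weeks the count was 0 of 5 against 0.0376%, and 1 of 5 against 5.58% unadjusted. A call anywhere was thus rare in these comparisons.

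The differences of the 1-MCP effect between weeks gave 0 of 5 PR10 loci in each case. Over all loci, limma called 0.0376% for 7 against 6 WAA, 0% for 8 against 7 WAA and 0.0376% for 8 against 6 WAA. At an unadjusted p under 0.05 the PR10 count was also 0 of 5 in each, with 4.85%, 4.58% and 4.33% of all loci. The 1-MCP log2 fold changes of the 5 tested loci ran from -0.44 to 0.60 at 6 WAA and from -0.16 to 0.78 at 7 WAA. At 8 WAA they ran from -0.32 to 0.23. Of these loci, the antisense locus XLOC_021938 was listed in 2 control and 4 treated libraries, so it reached the filter only with the treated ones.

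**Figure D2:**
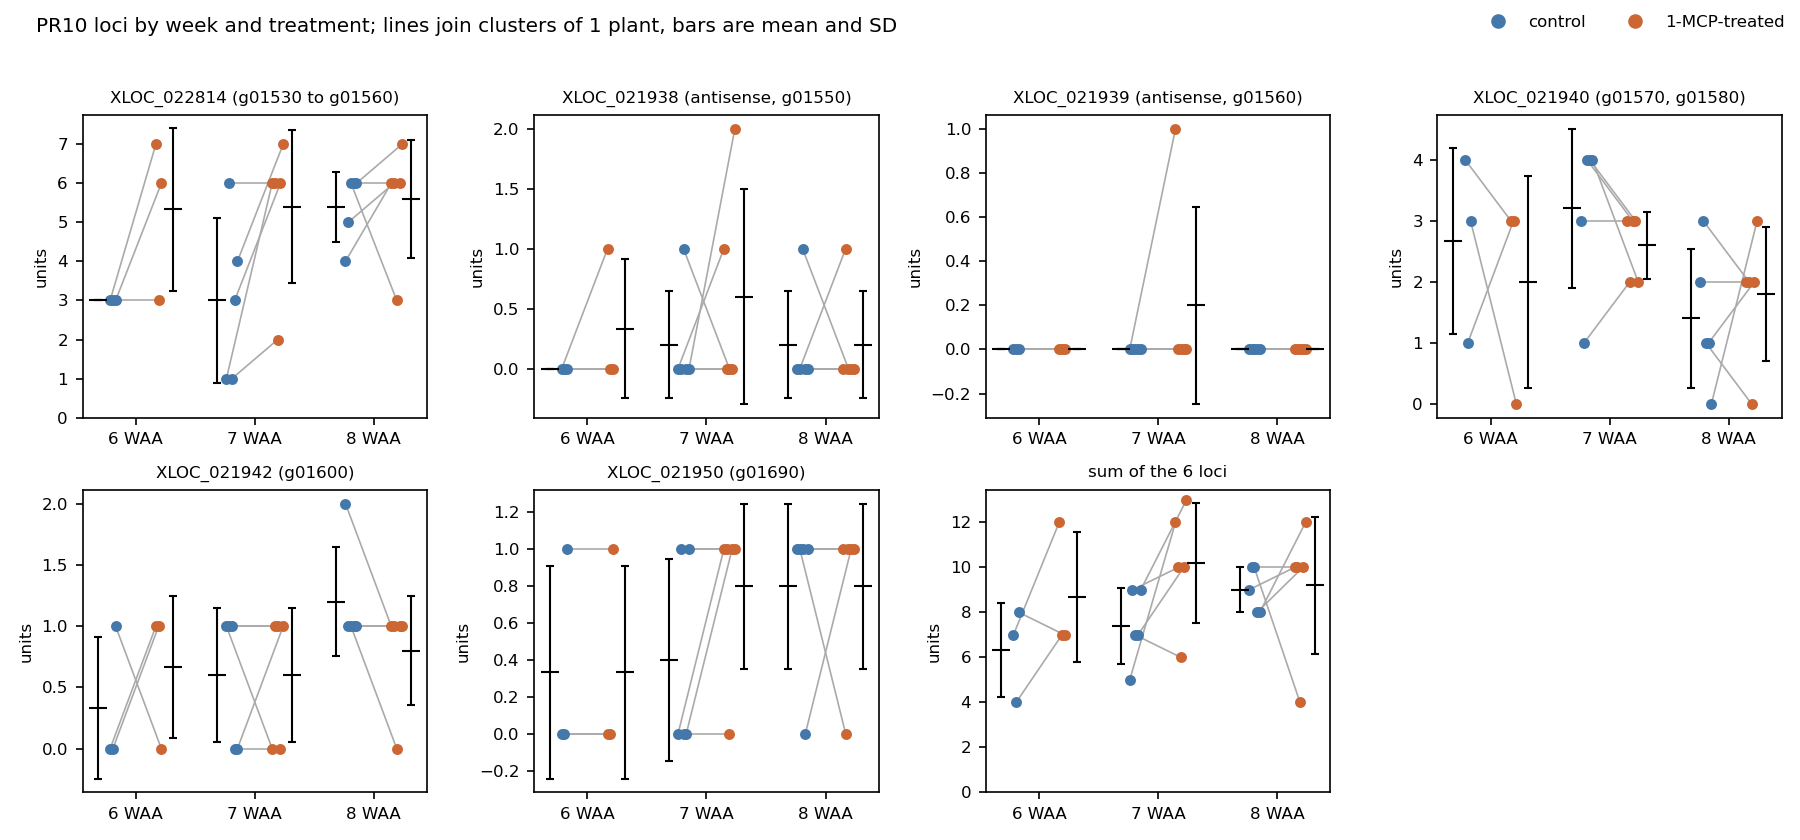
Units per library of the PR10 loci and of their sum at 6, 7 and 8 WAA, with control and 1-MCP-treated clusters as points, lines joining the clusters of 1 plant, and bars giving mean and SD. XLOC_022814 lies between 1 and 7 units, and its treated points lie above the control points of the same plant in 9 of 13 plants.

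Among the 4 genes of XLOC_022814, VIT_205s0077g01530 was higher after 1-MCP in the most plants. At 6 WAA it held 1, 0 and 0 units in control replicates 1 to 3 and 2, 1 and 2 units in treated clusters. At 7 WAA replicates 1, 2, 3, 4 and 12 held 1, 2, 0, 0 and 1 units in controls and 2, 2, 0, 2 and 2 units after 1-MCP. At 8 WAA replicates 1 to 5 held 1, 2, 2, 2 and 2 units in controls and 2, 2, 2, 2 and 3 units after 1-MCP. The treated cluster was higher in 8 plants, equal in 5 and lower in 0, although the ranges of the groups overlapped or touched in every week.

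The mean difference within plants for VIT_205s0077g01530 was 0.769 ± 0.725 units (SD, n = 13 plants). In a limma fit of all reference identifiers, added after seeing the data, its 1-MCP log2 fold change was 1.06 ± 0.28 at 6 WAA (SE, limma adjusted p = 0.491). It was 0.55 ± 0.22 at 7 WAA (SE, limma adjusted p = 0.791) and 0.20 ± 0.22 at 8 WAA (SE, limma adjusted p = 1). The average over the weeks was 0.60 ± 0.14 (SE, limma adjusted p = 0.499). None of these passed the threshold over all identifiers. Without replicate 4 of 7 WAA the value at 7 WAA was 0.29, and without replicate 1 of 8 WAA the value at 8 WAA was 0.10.

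The other 3 genes of the locus differed among themselves, and none passed the test. VIT_205s0077g01540 was listed at 0 or 1 unit, in 9 of 13 control and 12 of 13 treated libraries. VIT_205s0077g01550 was listed above 0 in 4 of 13 control and 10 of 13 treated libraries, and the treated cluster was higher in 7 plants and lower in 1. Its averaged log2 fold change was 0.64 ± 0.33 (SE, limma adjusted p = 0.832), in a fit that also held its antisense isoform, beside 0.60 for VIT_205s0077g01530. At 7 WAA it was 0.78 ± 0.52 (SE, limma adjusted p = 0.903), 0.40 without replicate 12 and 1.23 without replicate 3. VIT_205s0077g01560 stood at 2 units in most libraries, with a treated cluster above its control in 3 plants and below it in 3.

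**Figure D3:**
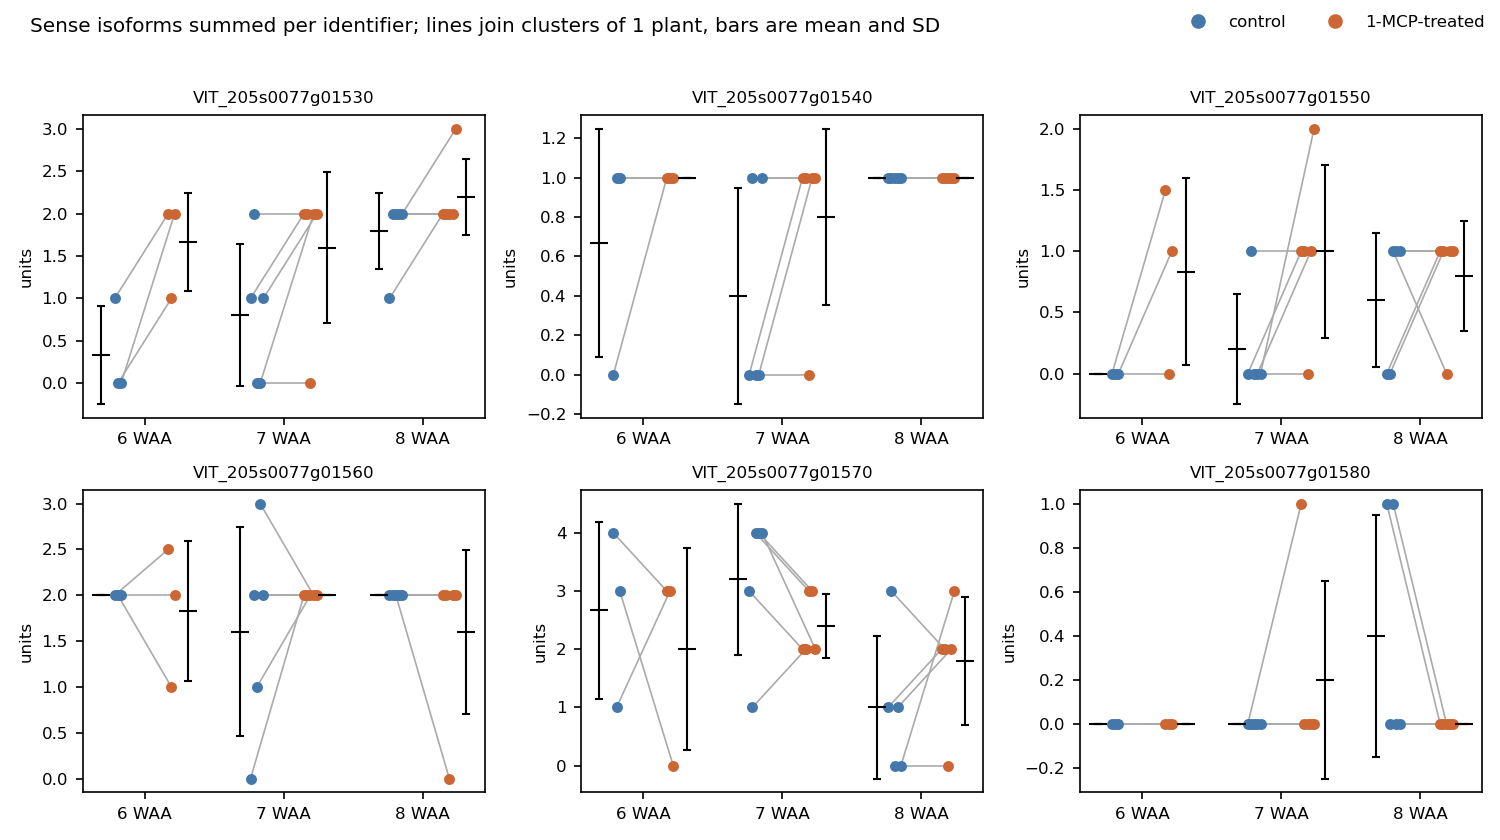
Units of the sense isoforms of 6 PR10 identifiers per library at 6, 7 and 8 WAA, control and 1-MCP-treated, with lines joining clusters of 1 plant and bars for mean and SD. VIT_205s0077g01530 is higher or equal at the treated end of every line, and VIT_205s0077g01580 is at 0 in all but 3 libraries.

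The isoforms of VIT_205s0077g01530 were unevenly spread over control and treated clusters, though none passed the test. TCONS_00063178, a form with a new junction, was at 1 unit in 0 of 3, 1 of 5 and 1 of 5 control libraries at 6, 7 and 8 WAA. After 1-MCP it was at 1 unit in 1 of 3, 4 of 5 and 5 of 5 libraries. TCONS_00063175, which equals the reference transcript, was at 1 unit in 1 of 3, 1 of 5 and 4 of 5 control libraries and in 2 of 3, 0 of 5 and 0 of 5 treated libraries. At 7 and 8 WAA, then, the treated clusters held the new-junction form in 9 of 10 libraries and the reference form in 0 of 10.

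In a limma fit of all isoforms, added after seeing the data, the log2 fold change of TCONS_00063178 was 0.60 ± 0.22 at 7 WAA (SE, limma adjusted p = 0.855). At 8 WAA it was 0.80 ± 0.22 (SE, limma adjusted p = 0.758). That of TCONS_00063175 at 8 WAA was -0.80 ± 0.21 (SE, limma adjusted p = 0.672). Both isoforms were listed at 0 or 1 unit only, so these values are differences in the share of libraries listing the isoform. They do not measure the amount of transcript. Neither isoform passed the threshold. Another form of the same gene, TCONS_00063176, was at 1 unit in 6 of 13 control and 11 of 13 treated libraries.

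XLOC_021940 did not follow XLOC_022814 under 1-MCP. Replicates 1 to 3 at 6 WAA held 4, 1 and 3 units in control clusters and 3, 3 and 0 units in treated clusters. Replicates 1, 2, 3, 4 and 12 at 7 WAA held 3, 1, 4, 4 and 4 units in control clusters and 3, 2, 3, 3 and 2 units in treated clusters. Replicates 1 to 5 at 8 WAA held 2, 3, 1, 1 and 0 units in control clusters and 2, 2, 0, 2 and 3 units in treated clusters. Groups overlapped in every week, and the treated cluster was higher in 4, equal in 2 and lower in 7 of 13 plants. The log2 fold change at 7 WAA was -0.16 ± 0.45 (SE, limma adjusted p = 1). It was -0.35 without replicate 2 and -0.01 without replicate 12. Across the 26 libraries the log2(units + 1) values of XLOC_021940 and XLOC_022814 had a Pearson correlation of -0.30, a description over libraries that share weeks and plants.

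The genes with a single isoform, and the antisense loci, were mostly listed at 0 or 1 unit, and no group stood apart from its control. VIT_205s0077g01600 was listed in 9 of 13 control and 9 of 13 treated libraries, with 2 units in control replicate 1 at 8 WAA. VIT_205s0077g01690 was listed in 7 of 13 control and 9 of 13 treated libraries. The antisense locus XLOC_021938 was listed in 2 control and 4 treated libraries. XLOC_021939 was listed in 1 library, treated replicate 1 at 7 WAA, and did not reach the filter for testing.

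Between 6 and 8 WAA, mock-treated control berries had PR10 values that differed in opposite directions at the largest loci, and no difference passed the test. XLOC_022814 in control clusters was 3 ± 0 units at 6 WAA (SD, n = 3), 3.0 ± 2.12 at 7 WAA (SD, n = 5) and 5.4 ± 0.894 at 8 WAA (SD, n = 5). XLOC_021940 was 2.67 ± 1.53, 3.2 ± 1.30 and 1.4 ± 1.14 units in the same groups. VIT_205s0077g01600 was listed in 1 of 3, 3 of 5 and 5 of 5 control libraries, and VIT_205s0077g01690 in 1 of 3, 2 of 5 and 4 of 5. In treated clusters XLOC_022814 was 5.33 ± 2.08, 5.4 ± 1.95 and 5.6 ± 1.52 units at 6, 7 and 8 WAA.

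For XLOC_022814 in control clusters the log2 fold change from 7 to 8 WAA was 0.84 ± 0.33 (SE, limma adjusted p = 0.606), and from 6 to 8 WAA it was 0.67 ± 0.38 (SE, limma adjusted p = 0.683). All 5 control libraries at 8 WAA, with 4 to 6 units, lay above the 3 libraries at 6 WAA, which were all at 3 units. It was the single PR10 locus of 4 tested whose groups did not overlap in that comparison, against 2.3% of all 17161 tested loci. For XLOC_021940 the log2 fold change from 7 to 8 WAA was -0.88 ± 0.42 (SE, limma adjusted p = 0.783). For XLOC_021942 it was 0.78 ± 0.33 from 6 to 8 WAA (SE, limma adjusted p = 0.532), the smallest adjusted p of the PR10 loci in any comparison.

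Limma called 0 of 4 tested PR10 loci from 6 to 7 WAA in control clusters, against 0.163% of all tested loci, and 0 of 4 against 5.41% had an unadjusted p under 0.05. From 7 to 8 WAA the counts were 0 of 4 against 0.577%, and 1 of 4 against 6.95% unadjusted. From 6 to 8 WAA they were 0 of 4 against 1.17%, and 1 of 4 against 7.86% unadjusted. From 6 to 7 WAA the median log2 fold change of the 4 loci was 0.14. It was 0.46 from 7 to 8 WAA and 0.57 from 6 to 8 WAA, beside 0 over all loci in each comparison. From 7 to 8 WAA and from 6 to 8 WAA, 3 of the 4 loci were higher. XLOC_021940 was lower, with log2 fold changes of -0.88 and -0.66.

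In treated clusters limma called 0 of 5 PR10 loci in each comparison of weeks, and 0 of 5 had an unadjusted p under 0.05 in each. Of all 17177 loci tested there, it called 0.146% from 6 to 7 WAA, 0.326% from 7 to 8 WAA and 0.454% from 6 to 8 WAA. The shares at an unadjusted p under 0.05 were 5.42%, 7.92% and 8.2%. In the same order, the median log2 fold change of the 5 PR10 loci was 0.18, 0 and 0.08, beside 0 over all loci in each.

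**Figure D4:**
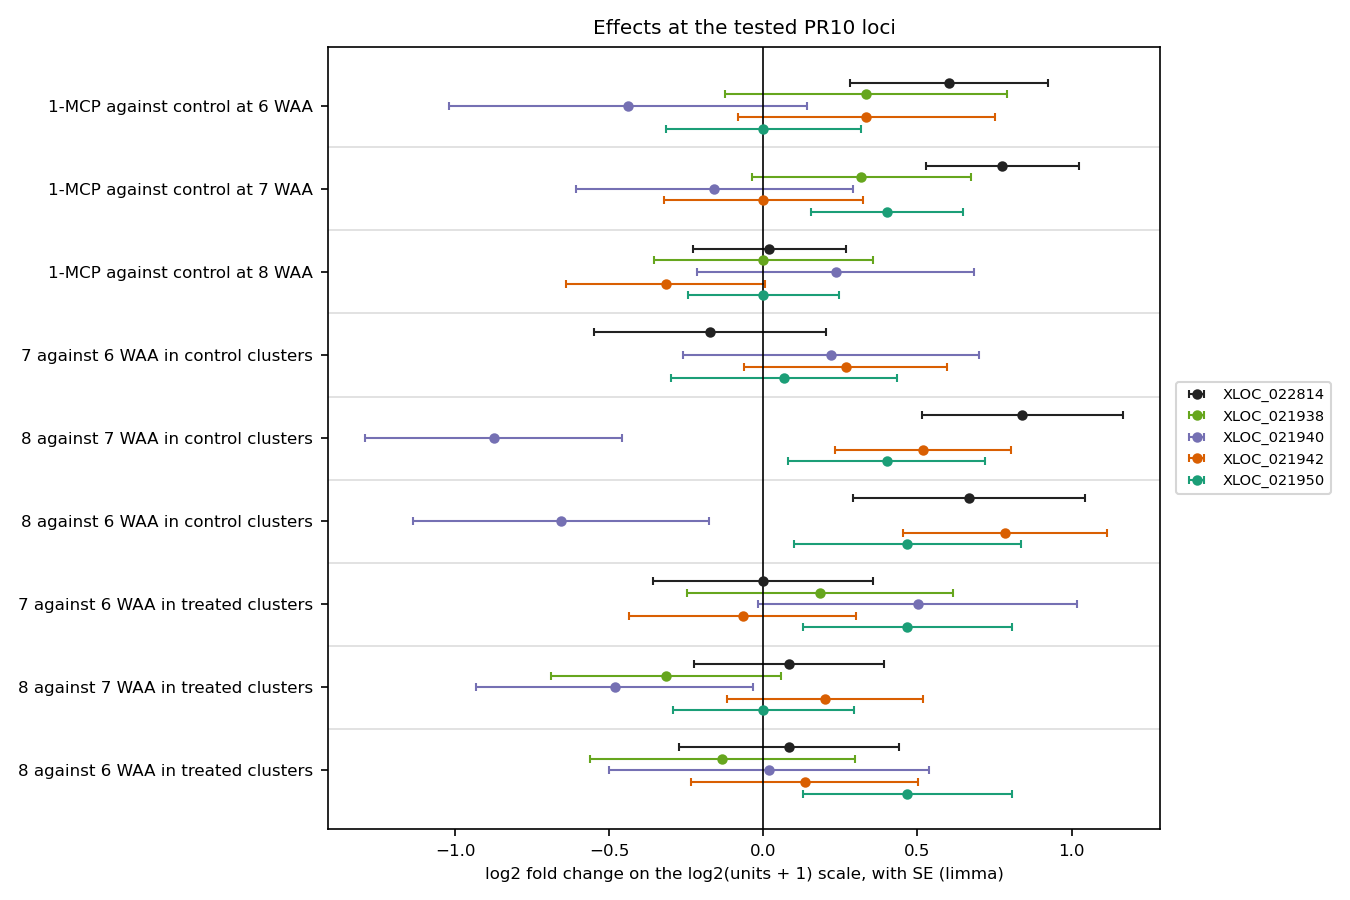
Log2 fold change on the log2(units + 1) scale (x axis, with SE from limma) of the 5 tested PR10 loci in 9 comparisons (y axis). No adjusted p was under 0.05, and XLOC_022814 has the highest fold change for 1-MCP at 6 and 7 WAA and for 8 against 7 WAA in control clusters.

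Within XLOC_021940 the lower control values at 8 WAA lay with VIT_205s0077g01570. Its values were 4, 1 and 3 units in control replicates at 6 WAA, 3, 1, 4, 4 and 4 at 7 WAA and 1, 3, 0, 1 and 0 at 8 WAA. The log2 fold change in control clusters was -1.19 ± 0.44 from 7 to 8 WAA (SE, limma adjusted p = 0.532). From 6 to 8 WAA it was -0.97 ± 0.51 (SE, limma adjusted p = 0.680). VIT_205s0077g01580 was listed at 1 unit in 3 of 26 libraries, control replicates 1 and 3 at 8 WAA and treated replicate 1 at 7 WAA. VIT_205s0077g01530 differed in the other direction in control clusters, by 0.75 ± 0.33 from 7 to 8 WAA (SE, limma adjusted p = 0.702). From 6 to 8 WAA its log2 fold change there was 1.13 ± 0.38 (SE, limma adjusted p = 0.382). In treated clusters the values from 6 to 8 WAA were 0.28 for VIT_205s0077g01530 and 0.02 for VIT_205s0077g01570.

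The isoform closest to the threshold was TCONS_00060802, a new-junction form of VIT_205s0077g01570. It was at 1 unit in 3 of 3 control libraries at 6 WAA and 5 of 5 at 7 WAA, and in 1 of 5, replicate 4, at 8 WAA. Treated clusters held it in 2 of 3, 5 of 5 and 4 of 5 libraries at 6, 7 and 8 WAA. Its log2 fold change in control clusters was -0.80 ± 0.17 from 7 to 8 WAA (SE, limma adjusted p = 0.115) and -0.80 ± 0.20 from 6 to 8 WAA (SE, limma adjusted p = 0.161). Without control replicate 4 of 8 WAA the isoform passed in both comparisons, since its values then did not vary within any group (limma adjusted p = 3.86e-15 and 8.67e-15). For 1-MCP against control at 8 WAA the log2 fold change was 0.60 ± 0.19 (SE, limma adjusted p = 0.901). The isoform was listed at 0 or 1 unit only, so these fold changes are differences in the share of libraries listing it.

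Over all 13 comparisons, 0 of 62 tests of PR10 loci passed the threshold, against 0% to 1.17% of all loci per comparison. An unadjusted p under 0.05 was found in 4 of 62, against 4.33% to 8.2% of all loci per comparison. For single PR10 identifiers, a level added after seeing the data, 0 of 98 tests passed, against 0.222% of all identifier tests. At an unadjusted p under 0.05 there were 9 of 98, against 5.91%. For isoforms the counts were 0 of 197 against 0.116%, and 20 of 197 against 5.61%. Tests of a gene in different comparisons share libraries, and the isoforms of a gene overlap, so these tests are not independent of each other.

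Other defence genes were looked up by identifiers recalled from the grapevine literature, which the files do not annotate, and none passed the test in any comparison. The PR1 list, named after a secreted protein much used as a marker of salicylic acid responses, had 7 loci. It summed to 0.667 ± 1.15, 1.2 ± 1.30 and 1.2 ± 0.837 units in control clusters at 6, 7 and 8 WAA (SD, n = 3, 5 and 5). The treated sums were 1.67 ± 1.53, 2.4 ± 1.52 and 2.4 ± 1.34 units, ranges that overlapped with the controls in every week. Limma called 0 of 5 tested PR1 loci for 1-MCP in each week, and 0 had an unadjusted p under 0.05.

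Class IV chitinases, which cut fungal cell walls, summed over 7 loci to 4, 4 and 4.4 units in control clusters and 4.33, 3.6 and 5 units in treated clusters. The glucanase list of 4 loci gave 3, 2.8 and 2.8 against 3, 3.2 and 3.4 units. The thaumatin-like list of 13 loci, osmotin relatives that accumulate in ripening berries, gave 5.33, 5.8 and 6.2 against 6.33, 6.4 and 6 units. Limma called 0 of 5 tested chitinase loci, 0 of 4 glucanase loci and 0 of 8 thaumatin-like loci for 1-MCP in each week. At an unadjusted p under 0.05 there was 1 of 5 chitinase loci at 6 WAA, and 1 of 4 glucanase loci at 6 WAA and at 8 WAA. The share of all loci was 6.68% at 6 WAA and 4.35% at 8 WAA, and with lists this short 1 locus is not read as a result. For the average over the weeks limma called none of these lists' loci. Against 5.58% of all loci, 1 glucanase locus, XLOC_028463 with VIT_208s0007g06060, had an unadjusted p under 0.05. Its averaged log2 fold change was 0.62 ± 0.14 (SE, limma adjusted p = 0.489), and it was higher after 1-MCP in 8, equal in 5 and lower in 0 of 13 plants.

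The genes lying between and around the cluster, from VIT_205s0077g01480 to VIT_205s0077g01740 without the PR10 members, comprised 18 identifiers on 20 loci. Of these loci, XLOC_021952 also held VIT_205s0077g01750, from outside that run. Sums over the 20 whole loci were 19 ± 3, 18.8 ± 3.27 and 17.8 ± 3.03 units in control clusters and 19.7 ± 4.04, 21.2 ± 4.09 and 19.8 ± 1.30 units in treated clusters at 6, 7 and 8 WAA (SD, n = 3, 5 and 5). Limma called 0 of 12 tested neighbours in each week for 1-MCP, and the median log2 fold change of the 12 was 0 in each. An unadjusted p under 0.05 was found for 1 of 12 in each week, against 6.68%, 5.34% and 4.35% of all loci. For the average over the weeks limma called 0 of 12, and 2 of 12 had an unadjusted p under 0.05, against 5.58%. The lower p of this pair was at XLOC_021952, with VIT_205s0077g01720, VIT_205s0077g01730 and VIT_205s0077g01750, whose averaged log2 fold change was 0.43 ± 0.12 (SE, limma adjusted p = 0.714). It was higher after 1-MCP in 10, equal in 2 and lower in 1 of 13 plants, beside 9, 3 and 1 for XLOC_022814. XLOC_021952 and XLOC_028463 were named after their values were seen.

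The loci whose log2(units + 1) values most resembled the summed PR10 signal across the 26 libraries, out of 16647 candidates, were XLOC_003694, XLOC_018326 and XLOC_001333. They carry VIT_211s0016g05300, VIT_202s0025g03790 and VIT_201s0026g01590, with Pearson correlations of 0.75, 0.71 and 0.68. These were picked as the highest of all candidates, so their size alone shows no link. XLOC_003694 was at 0 in control replicate 2 of 6 WAA, control replicate 1 of 7 WAA and treated replicate 3 of 8 WAA. Those libraries had the lowest PR10 sums, at 4, 5 and 4 units, and XLOC_003694 was at 1 unit in all others. The summed PR10 signal had a correlation of 0.32 with the library total over the same libraries.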

How the data were processed

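Berry RNA was read by Illumina sequencing, per the labels. The authors deposited a signal value per assembled isoform for each of 26 libraries, and an annotation table that gives isoform length in bases. Per the submitters' processing notes, Bowtie2 2.2.3 was used. Quantifier, build and annotation: not given in the sources used here.

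Each library's values were divided by its step, the commonest value above 0.5, which was 1.03 to 1.05. Of values above 0, 83.9% to 91.2% were whole units (tolerance 0.01) for isoforms and 97.7% to 98.5% for locus sums. Isoforms were summed per assembled locus. No count test was run, since the units are not known to be reads.

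Loci with at least 1 unit in at least 3 libraries of a fit were tested with limma 3.58.1 (R 4.3.3) on log2(units + 1), without trend or robust options. P-values were adjusted by Benjamini-Hochberg over all tested loci, threshold 0.05. The 1-MCP fit took the 26 libraries together, blocked by plant (13 plants); weeks were compared within the 13 control or 13 treated libraries. The steps were also run on values shuffled over the 26 libraries, without the pairing of plants. No statement here rests on that run. Tables and plots were made with Python 3.11.15, pandas 2.3.3, numpy 2.4.6 and matplotlib 3.10.9.

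That treated and control clusters came from the same plant is from the series design text. Which libraries share a plant was inferred from equal week and replicate number in the titles. Deviations from group means correlated at -0.090 to 0.092 between libraries of the same plant (median 0.019, 12 of 13 above 0). The median was -0.014 for other plants of the same week. Centring on group means pulls these other pairs below 0 when same-plant pairs lie above it, so their median is no separate check.

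The named loci were all members, any locus of the defence and neighbour lists past the threshold, and the 3 loci most like the summed signal. The members and lists were chosen with earlier results of these data known. Alternatives changed the pseudocount, the filter, the scaling, the block, the libraries and the feature level. The files' identifiers matched 0 entries of the RefSeq table of assembly GCF_030704535.1, so no gene names, sequences or RefSeq coordinates were used.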

Additional observations from a re-analysis of the deposited data

Results flagged for a closer look

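Groups of 5 libraries were checked for a lowest or highest library whose gap to the others was large against the range of the group, by Dixon's 95% limit of 0.71. Of 52 groups of PR10 values, 20 were flagged, where chance flags about 1 in 20. Most values were 0, 1 or 2 units, so a single library that differs by 1 unit from 4 equal ones is flagged, and the flags overlap because loci, genes and the sum share isoforms.

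Treated replicate 3 of 8 WAA had 5 flags. Its summed PR10 signal was 4 units with the next library at 10. XLOC_022814 was at 3 units with the next at 6, VIT_205s0077g01560 at 0 with the others at 2, and VIT_205s0077g01550 and XLOC_021942 at 0 with the others at 1. Its library total was 21497 units, within the range of the other libraries. Treated replicate 3 of 7 WAA had 4 flags. XLOC_022814 was at 2 units with the next at 6, VIT_205s0077g01530 at 0 with the others at 2, and VIT_205s0077g01540 and XLOC_021950 at 0 with the others at 1. Its library total was 23116 units.

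The other flags were single values. XLOC_021938 was at 1 unit, with the others at 0, in control replicate 3 of 7 WAA, control replicate 3 of 8 WAA and treated replicate 2 of 8 WAA. Treated replicate 1 of 7 WAA had 1 unit of XLOC_021939 and 1 unit of VIT_205s0077g01580, with the others at 0, and control replicate 2 of 7 WAA had 1 unit of VIT_205s0077g01550. At 8 WAA, XLOC_021942 was at 2 units in control replicate 1, and XLOC_021950 was at 0 in control replicate 4 and treated replicate 2, each with the others at 1. VIT_205s0077g01530 was at 1 unit in control replicate 1 and at 3 units in treated replicate 5 of 8 WAA, with the others at 2.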

How the results depend on the processing

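Over 50 settings at the level of loci, 0 PR10 loci passed the threshold in any comparison, and the smallest limma adjusted p was 0.165. Over 28 settings at the level of identifiers, 0 passed, with a smallest limma adjusted p of 0.223. The values of VIT_205s0077g01530 and VIT_205s0077g01570 from 6 to 8 WAA in treated clusters were not refitted under any alternative. Of the other log2 fold changes reported for loci, genes and isoforms, only that of XLOC_022814 for 1-MCP at 8 WAA, 0.02, changed sign. It was -0.03 with equal library totals and -0.10 to 0.23 with a plant left out. A pseudocount of 0.1 gave -1.64 in place of -0.88 for XLOC_021940 from 7 to 8 WAA in control clusters and 2.49 in place of 0.78 for XLOC_021942 from 6 to 8 WAA. It also gave 2.15 in place of 0.62 for the averaged 1-MCP effect at XLOC_028463, as the smaller constant widens ratios of low values. With each replicate left out in turn, the number of PR10 isoforms called ranged from 0 to 1 for control clusters at 8 against 7 WAA and at 8 against 6 WAA. The 1 was TCONS_00060802 without control replicate 4 of 8 WAA (log2 fold change -1 in both). Without the plant block, 0 PR10 loci were called, and the limma p of XLOC_022814 at 7 WAA was 0.0249 against 0.0101 with the plant pairing. A replicate block on numbers shared between weeks also called 0 and gave XLOC_022814 a log2 fold change of 0.93 and XLOC_021940 one of -0.51 in control clusters from 7 to 8 WAA.

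Counts over all loci did depend on settings. Calls for 1-MCP were 8, 1 and 0 at 6, 7 and 8 WAA, 5 to 140, 0 to 4 and 0 to 5 under the other settings, and 14 to 21, 0 to 2 and 0 to 3 with a plant left out. The average over the weeks gave 7, with 1 to 7 and 4 to 18. Differences of the effect gave 7, 0 and 7 for 7 against 6, 8 against 7 and 8 against 6 WAA, with 4 to 8, 0 and 3 to 7, and 8 to 22, 0 to 3 and 7 to 23 with a plant left out. Control weeks gave 28, 99 and 200 for 7 against 6, 8 against 7 and 8 against 6 WAA, with 11 to 35, 74 to 120 and 84 to 218, and 18 to 79, 74 to 142 and 90 to 134 with a library left out. Treated weeks gave 25, 56 and 78, with 6 to 39, 36 to 95 and 57 to 167, and 20 to 54, 43 to 183 and 54 to 114. The cause was not tested. The read depth is unknown.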
